A study of Caenorhabditis elegans with 2 samples.

Results

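The nuclear genes of the mitochondrial respiratory chain and ATP synthase were examined for binding of the Caenorhabditis elegans protein FKH-4, which belongs to the forkhead class of transcription factors. Members were chosen by name in the Ensembl annotation of the WBcel235 assembly, as protein-coding genes on the nuclear chromosomes with the prefixes nuo-, nduf-, cox-, atp-, ucr-, cyc- and sdha- to sdhd-, together with gas-1, isp-1, mev-1 and sco-1. This gave 48 of 19973 nuclear coding genes. By complex these were 13 genes of complex I, 5 of complex II, 7 of complex III, 2 for cytochrome c, 16 of complex IV including 9 assembly factors, and 5 of ATP synthase. Many subunits carry other names, and the genes of the mitochondrial chromosome were left out.

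FKH-4 occupancy was measured by ChIP-seq (chromatin immunoprecipitation and sequencing) in whole animals, hermaphrodites in the first larval stage (L1). Both samples were of strain OP100, which carries the unc-119(tm4063) III mutation and the transgene wgIs100, in which FKH-4 is tagged at its C terminus with GFP and FLAG. The worms had been starved after bleaching and were taken 6 h after synchronization, and the sonicated chromatin was immunoprecipitated through the GFP tag. The samples were biological replicates 1 and 2 of this 1 group, with no untreated or untagged sample among them, and whole animals do not show in which cells a peak arose. The gene annotated as fkh-4, on the X chromosome, had no summit in its window or its body in any list. The gene unc-119 had none in the reproducible set.

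The authors' reproducible set held 1189 peaks that passed IDR, a procedure that compares the order of peaks between replicates. It coincides with the 1189 strongest peaks of the pooled list, and its signal values ran from 51.7 to 645 with a median of 80.4. The relaxed lists, which include many weak peaks, ran to 30000 peaks in the pooled reads and in replicate 1 and to 22442 in replicate 2. The signal value is the one the authors deposited for each peak, with no scale stated. It is comparable only within a list, so ranks are given beside it, with rank 1 for the strongest peak. The sequencing depth behind the lists is unknown here. A gene was counted as having a peak where a summit was found in its promoter window, which spans 1000 bp before and 200 bp after each of its coding transcription start sites (TSSs). Whether such a peak regulates the gene was not tested.

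The respiratory chain passes electrons from NADH (complex I) or succinate (complex II) through ubiquinone to complex III, and through cytochrome c to complex IV, which reduces oxygen. Complexes I, III and IV pump protons across the inner mitochondrial membrane, and ATP synthase uses the gradient to make ATP. Most subunits are encoded in the nucleus and imported. In C. elegans, mutations in several of these genes alter lifespan, development and resistance to oxidative stress, mev-1 and isp-1 being well-known cases. Forkhead factors bind DNA through a winged-helix domain, most of them at sites with the core TGTTTA.

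Of the 48 genes, 10 (20.8%, 95% exact interval 10.5 to 35.0) had a summit of the reproducible set in a promoter window. Among all coding genes the share was 4.77%. The 10 genes were nduf-2.2, nduf-6 and nduf-11 of complex I, mev-1 of complex II, isp-1 of complex III, cox-5A, cox-6A and sco-1 of complex IV, and atp-1 and atp-5 of ATP synthase. Each complex thus had at least 1 gene with a peak, and neither cytochrome c gene had one. That did not hold at every setting. With a window from 500 bp upstream to 100 bp downstream, complex III had none. With the stronger 594 peaks only, complexes I and II had none. Counting each peak only for the gene with the nearest TSS removed mev-1 and isp-1, the only genes with a peak in complexes II and III. Exact intervals here cover counting error only and treat genes as independent. The members and lists were examined with earlier results of these data known, so the counts are descriptions and carry no test.

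The DNA under 5 of these peaks is shown, those with the highest signal on chromosomes II to V whose windows lie outside coding exons and UTRs. Each run is 101 bases of the WBcel235 genome (RefSeq copy; the same build as ce11) centred on the summit and written 5′ to 3′ on the strand of the gene. Capitals mark the only match among these windows to a 14-base word described further on, which was picked as the word near the most reproducible peaks. The windows are chrII:4299394-4299494 (+ strand) for sco-1, chrIII:12905149-12905249 (+ strand) for cox-5A, chrIV:8136725-8136825 (− strand) for isp-1, chrII:11345758-11345858 (− strand) for nduf-11 and chrIII:5080937-5081037 (+ strand) for cox-6A.
sco-1: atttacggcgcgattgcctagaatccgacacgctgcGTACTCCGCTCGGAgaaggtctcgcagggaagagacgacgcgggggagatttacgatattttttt
cox-5A: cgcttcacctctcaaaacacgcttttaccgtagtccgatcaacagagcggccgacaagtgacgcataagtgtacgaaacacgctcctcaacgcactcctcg
isp-1: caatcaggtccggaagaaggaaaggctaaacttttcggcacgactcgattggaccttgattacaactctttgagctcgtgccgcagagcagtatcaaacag
nduf-11: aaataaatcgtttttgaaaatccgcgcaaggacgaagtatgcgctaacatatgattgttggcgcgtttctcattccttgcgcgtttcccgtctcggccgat
cox-6A: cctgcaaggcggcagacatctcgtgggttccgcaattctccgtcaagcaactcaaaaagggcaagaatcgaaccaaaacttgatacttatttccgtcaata

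Complex IV, cytochrome c oxidase, had the strongest peaks. The peak of sco-1, whose product delivers copper to the oxidase, had a pooled signal of 359.8 and ranked 12 among the 1189 peaks. Its signal was 131.8 in replicate 1 (rank 23) and 223 in replicate 2 (rank 11). The summit lay on chromosome II at position 4299444, between genes and 209 bp upstream of the sco-1 TSS. No other coding gene's window held it.

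The peak of cox-5A, a nuclear-encoded oxidase subunit, had a pooled signal of 237.5 and ranked 54. Its signal was 106.7 in replicate 1 (rank 37) and 127.8 in replicate 2 (rank 73). The summit was intergenic, on chromosome III at position 12905199, 292 bp upstream of the TSS, and the upstream gene unc-71 was 13753 bp away. Both genes were among the strongest 100 peaks in each replicate, ahead of every other member.

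The third peak of complex IV, at the subunit gene cox-6A, was weaker, with a pooled signal of 74.3 and rank 676. Its signal was 26.0 in replicate 1 (rank 1026) and 45.2 in replicate 2 (rank 668). The summit at chromosome III position 5080987 lay 737 bp upstream of the cox-6A TSS. It was much closer to the start of an snRNA gene on the opposite strand, F54D8.7, which the summit preceded by 89 bp. Of the 7 oxidase subunit genes, 2 had a reproducible peak, and of the 9 assembly genes, sco-1 was the only one. The share of all coding genes to set beside each count by complex is 4.77%. Sets this small allow no comparison between them.

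In ATP synthase, 2 of 5 genes had a reproducible peak, and both summits lay between divergent genes or at the start of one of them. atp-5, for the d subunit of the stalk, had a pooled signal of 140.0 and rank 203, with 49.1 in replicate 1 (rank 286) and 88.3 in replicate 2 (rank 179). Its summit on chromosome V at position 11124141 was 274 bp upstream of atp-5 and 45 bp upstream of the divergent gene lmtr-3. atp-1, for the catalytic-core alpha subunit, had a pooled signal of 113.7 and rank 310, with 51.8 in replicate 1 (rank 251) and 55.9 in replicate 2 (rank 470). Its summit on chromosome I at position 12652277 fell on the first base of the atp-1 5′ UTR, and the divergent gene mcrs-1 started 190 bp away.

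In complex III, 1 of 7 genes had a reproducible peak. isp-1, for the Rieske iron-sulphur protein, had a pooled signal of 115.4 and rank 302, with 51.6 in replicate 1 (rank 252) and 62.0 in replicate 2 (rank 378). The summit on chromosome IV at position 8136775 was 720 bp upstream of isp-1. It lay in an intron of the divergent neighbour islo-1, 386 bp inside that gene from its TSS, so islo-1 was the nearer gene.

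In complex II, 1 of 5 genes had a reproducible peak. mev-1, for the cytochrome b subunit of succinate dehydrogenase, had a pooled signal of 79.3 and rank 614, with 24.8 in replicate 1 (rank 1164) and 47.1 in replicate 2 (rank 626). The summit on chromosome III at position 10334055 was 222 bp upstream of mev-1 and 37 bp upstream of the divergent gene jmjd-4. The window around it had the lowest GC content of the 10, at 20.8%.

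The 3 complex I peaks were all below the median signal of the reproducible set. nduf-6, for an accessory subunit, had a pooled signal of 78.0 and rank 632, with 27.4 in replicate 1 (rank 890) and 48.6 in replicate 2 (rank 604). Its summit on chromosome I at position 7090371 was 369 bp upstream of nduf-6 and 309 bp upstream of nars-1, which encodes an asparaginyl-tRNA synthetase.

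nduf-11 had a pooled signal of 75.1 and rank 665. It was the member whose rank was most in favour of replicate 1 among the 10, with a signal of 45.3 there (rank 329) against 31.8 in replicate 2 (rank 1180). The intergenic summit at chromosome II position 11345808 was 188 bp upstream of its TSS and in no other coding gene's window.

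nduf-2.2, a paralogue of gas-1 for a core subunit, was the weakest of the 10, with a pooled signal of 56.8 and rank 1014, close to the end of the set. Its signal was 24.1 in replicate 1 (rank 1282) and 25.3 in replicate 2 (rank 1738), so it was outside the strongest 1189 peaks of both replicates. The summit at chromosome III position 6464364 was 858 bp upstream of nduf-2.2, 585 bp upstream of the divergent dynein light chain gene dlc-1, and 77 bp into a noncoding RNA gene, T26A5.10. Its window had the highest GC content of the 10, at 67.3%.

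**Figure D1:**
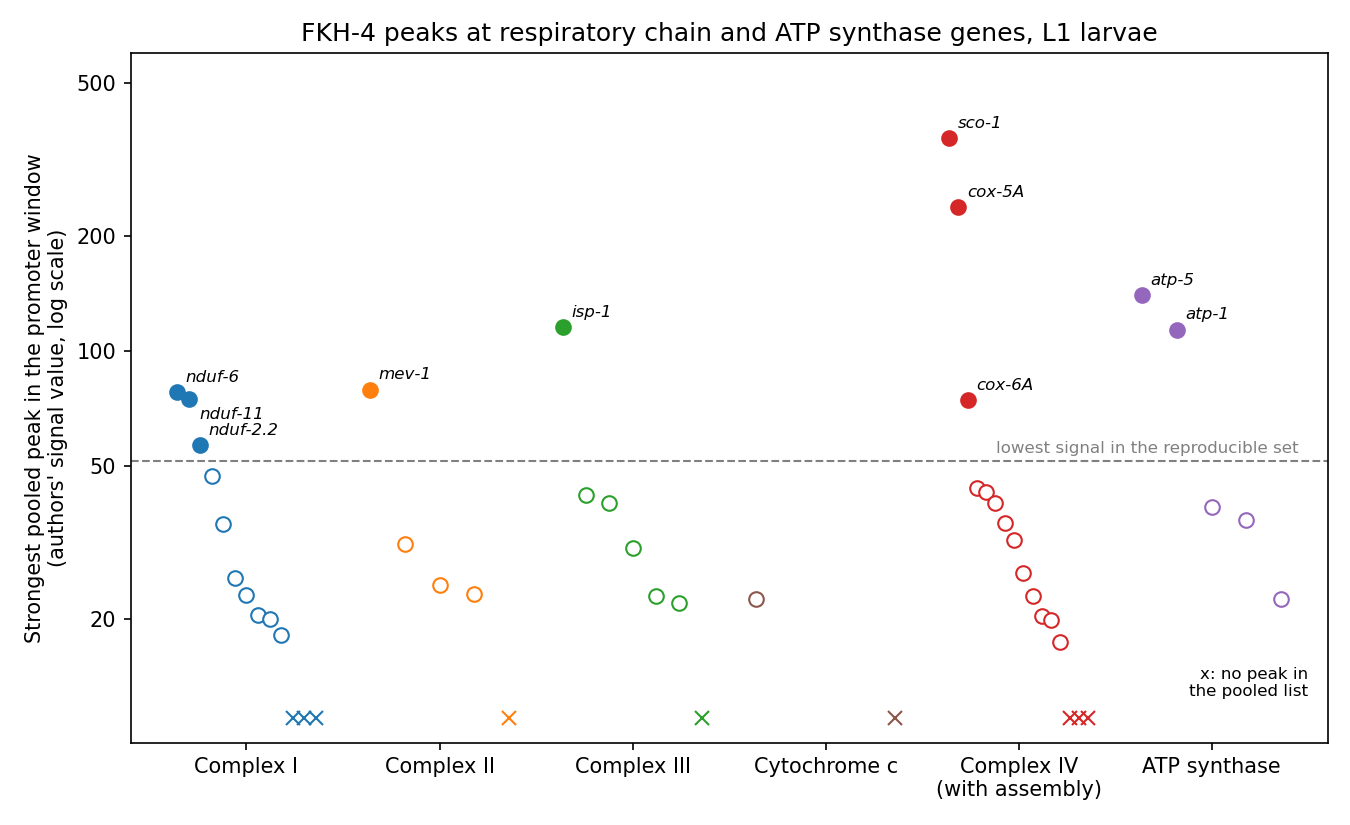
Authors' signal value (log scale) of the strongest pooled peak in each gene's promoter window, by complex; filled circles are genes with a reproducible peak, open circles have only a weaker pooled peak and crosses have none. The filled points run from 56.8 for nduf-2.2 to 359.8 for sco-1, and the strongest open point is nuo-1 at 47.1.

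All 10 peaks were found in both replicates, with summits at most 32 bp from the pooled summit. IDR selects peaks by their agreement between replicates, so presence in both adds no separate support for these genes. Of the 10, 5 ranked higher in replicate 1 and 5 in replicate 2. Among the 1189 strongest peaks of replicate 1, 9 of the 48 genes had a summit, against 4.52% of all coding genes. Among those of replicate 2, 12 genes did, against 4.88%. The 9 of replicate 1 were all of the reproducible genes other than nduf-2.2. Replicate 2 had these 9 and cox-5B (rank 812), cox-6B (rank 964) and atp-2 (rank 1052). With summits within 200 bp of each other among the strongest peaks of both replicates, the count was 9, against 3.33%.

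The replicates differed at these further genes. cox-5B, an oxidase subunit gene, had a signal of 40.3 in replicate 2. Its strongest window peak in replicate 1 had a signal of 17.9 (rank 4039) and lay 275 bp from that summit. Another summit of replicate 2, at rank 1397 with a signal of 28.6, was 75 bp from this replicate 1 peak. cox-6B, another oxidase subunit gene, had a signal of 36.4 in replicate 2, and atp-2, for the beta subunit of ATP synthase, had 34.4. Neither of these had a summit of replicate 1 in its window. In the opposite direction, sdha-1, for the flavoprotein of succinate dehydrogenase, ranked 1401 in replicate 1 with a signal of 23.4. The closest summit of replicate 2 was 600 bp away, at rank 22354 with a signal of 9.11, so the sdha-1 peak of replicate 1 had no match within 200 bp. Of the 25 genes with a window peak in both replicates, the strongest summits lay within 200 bp of each other for 18, the 10 reproducible genes included, and farther apart for 7. That split was not computed over all coding genes. With any window summit counted in place of the strongest, 22 genes had summits within 200 bp of each other, against 16.1% of all coding genes.

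**Figure D2:**
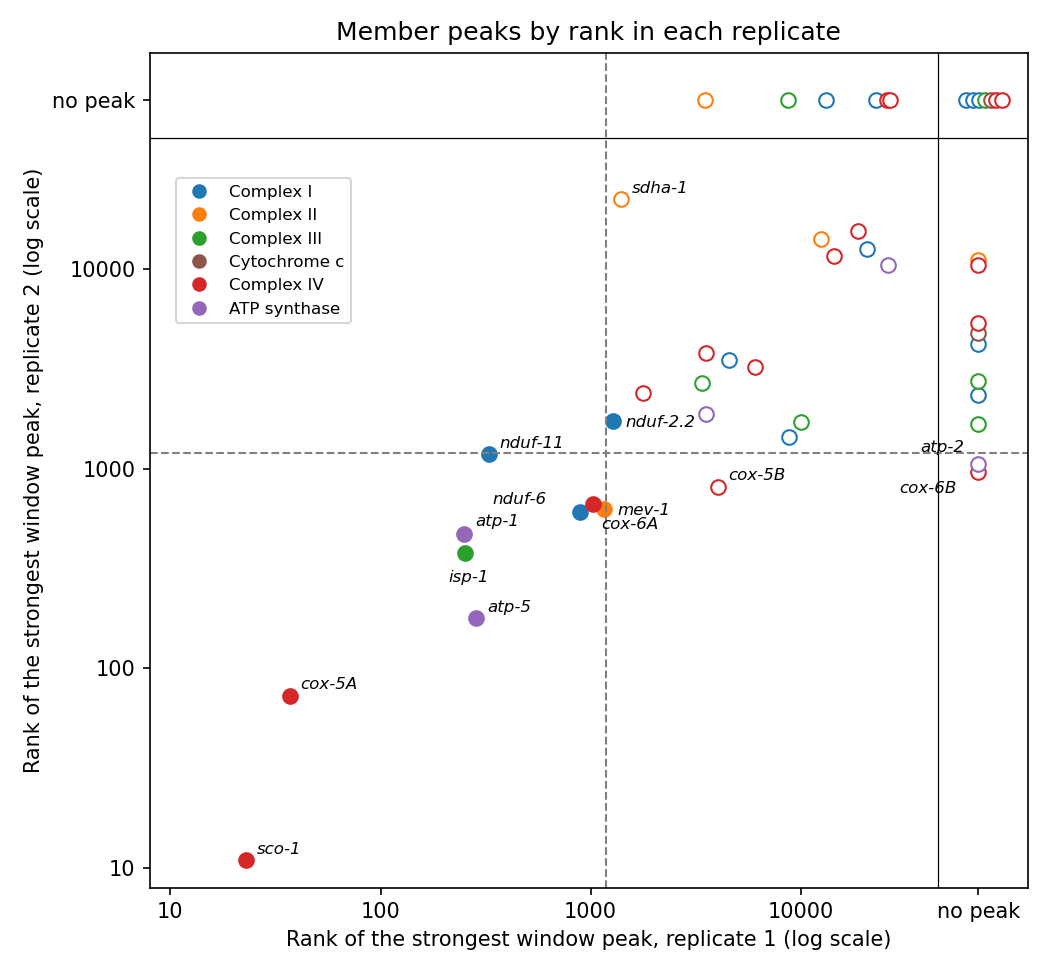
Rank of the strongest promoter-window peak of each gene in replicate 1 (x axis) and replicate 2 (y axis), which need not be at the same place, both on log scales with rank 1 the strongest, coloured by complex; filled circles are genes of the reproducible set, dashed lines mark rank 1189 and the outer bands hold genes with no peak. The 7 genes in the corner had no peak in either replicate, and sco-1 and cox-5A stand apart at the strong end.

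In the relaxed lists most respiratory genes had some peak, at levels that many genes reach. A pooled summit was present for 39 of the 48 genes (81.3%), against 40.8% of all coding genes. The count was 31 in replicate 1 against 39.8%, and 35 in replicate 2 against 33.5%. Summits of both replicates within 200 bp of each other were present for 22 genes, against 16.1%. The 29 genes with a pooled peak below the reproducible set had signals from 17.4 for cox-11 to 47.1 for nuo-1.

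Several of these weaker peaks lay just below the reproducible set. The strongest was that of nuo-1, for the NADH-binding flavoprotein subunit of complex I, at rank 1419 with a pooled signal of 47.1, and 8821 and 1432 in the ranks of replicates 1 and 2. cox-10, for an enzyme of haem A synthesis, followed at rank 1604 with 43.9, and ranked 1766 and 2392 in the replicates. cox-6B was next at rank 1676 with 42.9. Its peak also lay in the window of nduc-2, a complex I gene.

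With the list extended to the strongest 3000 pooled peaks, a number chosen after the ranks were seen, 10 further genes had a summit, which is 20.8% of the 48 against 4.57% of all coding genes. In order of rank these were nuo-1, cox-10, cox-6B, cyc-1, ucr-1, cox-5B, atp-2, atp-3, cox-4 and nuo-2. ATP synthase then had a peak at 4 of its 5 genes, atp-4 being the exception at rank 11730. Of these, atp-1 and atp-5 were already in the reproducible set. Among all coding genes, 4.77% had a reproducible peak, and the 4.57% reached by the extension come on top of these.

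No summit of any list was found in the windows of 7 genes. These were gas-1, nuo-5 and nuo-6 of complex I, ucr-2.3 of complex III, cyc-2.2 for cytochrome c, and the assembly genes cox-17 and cox-19. The share without a summit in any list was not computed over all coding genes, of which 40.8% had a pooled summit. cox-18 and sdhd-1 had a summit in replicate 2 only, with signals of 12.4 and 12.1. gas-1 and nduf-2.2, the paralogous pair, therefore stood on opposite sides of the call. For the 38 genes without a reproducible peak, the nearest reproducible summit was at a median of 30898.5 bp, and 7 of them had one within 5000 bp. The same distances were not computed for other coding genes, so they carry no comparison.

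The 10 summits lay at or upstream of the TSS of their gene, from 0 to 858 bp away with a median of 283 bp. Over all 984 pairs of a coding gene and a reproducible peak in its window, the median distance was 245 bp in either direction. Of the 10 peaks, 5 lay in the window of a second coding gene as well, namely those of atp-1, atp-5, mev-1, nduf-6 and nduf-2.2. Among all 697 promoter peaks, 274 (39.3%) were shared in this way. Without replicate 1 the count was 8 of 13 peaks, and with a window from 2000 bp upstream to 500 bp downstream it was 9 of 14. Among coding genes only, the nearest TSS was that of the respiratory gene for 5 peaks and that of another gene for the other 5, isp-1 included. A start of a noncoding RNA gene within 200 bp, or a summit inside such a gene, was found at 2 of the 10, cox-6A and nduf-2.2, and at 13.2% of all promoter peaks.

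**Figure D3:**
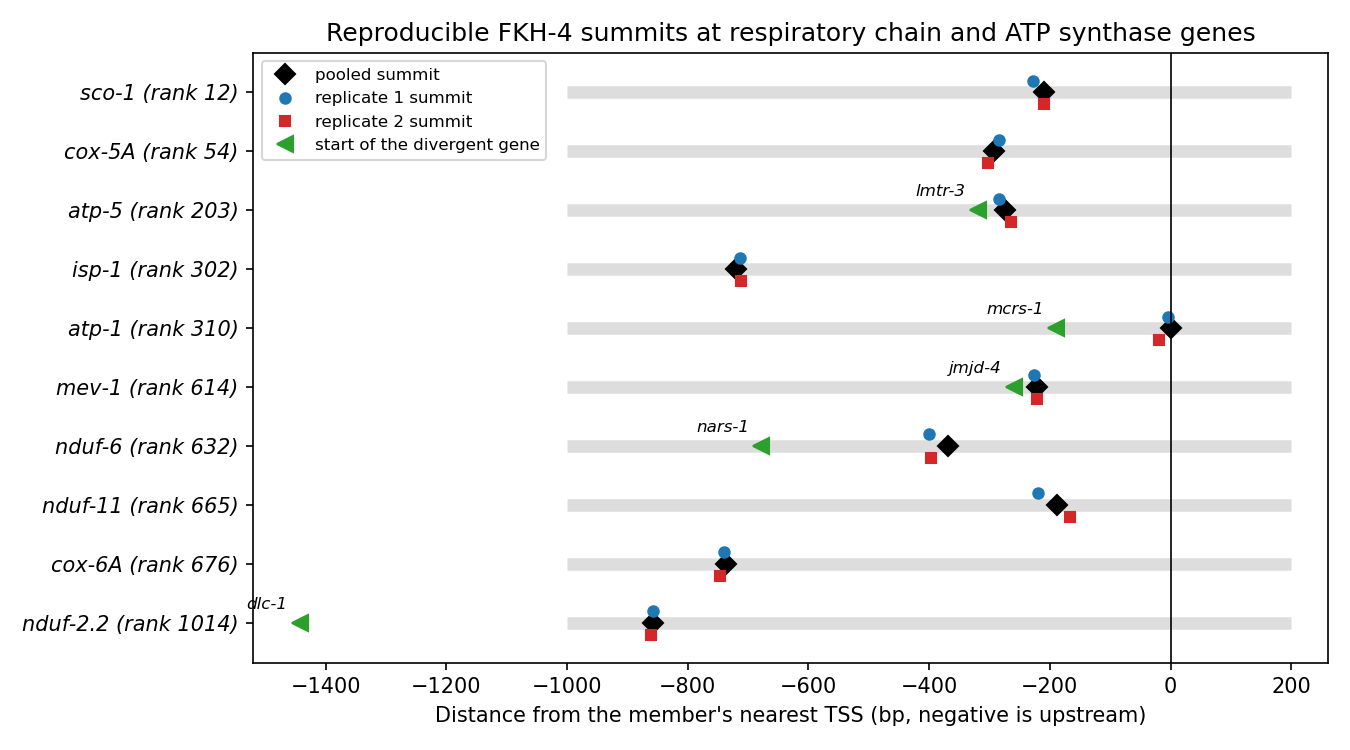
Position of each reproducible summit relative to the nearest TSS of the respiratory gene (bp, negative is upstream), with genes ordered by rank; diamonds are pooled summits, circles and squares those of replicates 1 and 2, triangles the start of a divergent gene that shares the peak, and grey bars the promoter window. The 3 summits of each gene lie within 53 bp of one another, and 7 of the 10 genes have their pooled summit within 400 bp of the TSS.

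Promoter windows of neighbouring genes overlap where their starts are close, so the upstream neighbour of each gene was recorded. Of the 48, 25 (52.1%) had a divergent upstream neighbour starting within 2000 bp, as did 4987 of the 19973 coding genes. A neighbour on the same strand ending within 1000 bp was present for 18 (37.5%), against 27.8% of coding genes, and the remaining 5 (10.4%) were in neither class, against 47.2%. Genes whose start lay inside another coding gene were put with the remaining genes, whatever their neighbours. Within the divergent class, 6 of 25 genes had a reproducible peak, where the share over all coding genes was 10.2%. Within the same-strand class the figures were 2 of 18 against 3.12%, and for the remaining genes 2 of 5 against 2.88%. The last 2 were cox-5A and cox-6A. By chromosome, genes with a peak were 2 of 14 on I, where 6.39% of all coding genes had one, and 2 of 7 on II, against 4.44%. They were 4 of 12 on III against 8.26%, 1 of 6 on IV against 4.72%, 1 of 5 on V against 3.30% and 0 of 4 on X against 2.86%.

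The sequences under the 10 summits had few of the motifs searched. Searched on both strands within 50 bp of the summit were TGTTTAC and TGTTTA (forkhead; the first contains the second), TTTCCCGC (E2F), CACGTG (E-box), GGGCGGG (GC box), TGATAA for the GATA factor family, the repeat GAGAGA, the word CTGCGTC, the word CTACAAA and the TATA word TATAAA. The only match was TGTTTA at nduf-6. TGTTTA was present at 6.06% of all 1189 summits and in 8.41% of flanking windows centred 300 bp away. The longer TGTTTAC matched none of the 10, 1.01% of all summits and 1.26% of flanks. GAGAGA, present at 19.5% of all summits and 6.73% of flanks, matched none of the 10, and neither did CTGCGTC, at 7.65% and 1.14%. CACGTG matched none of the 10, 4.46% of summits and 1.85% of flanks. TTTCCCGC and GGGCGGG were each at 1.01% of summits, in 0.463% and 0.547% of flanks. TGATAA was at 3.03% of summits and in 8.87% of flanks, CTACAAA at 0.589% and 2.40%, and TATAAA at 6.39% and 11.5%.

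A longer word was searched within 100 bp of each summit, namely the 14-base word present near the most summits of the reproducible set. It is printed in capitals as read on the − strand at chrIV:16415262-16415275.
word: GTACTCCTCTCGGA
With at most 1 mismatch it was found at 71 of 1189 summits (5.97%), 68 of 697 promoter summits (9.76%) and 0.210% of flanks. An exact copy was near 35 summits. The word was picked from these same summits, so a higher share there than in flanks was set by that choice. Of the 10 respiratory summits, sco-1 had a copy, the run in capitals in its window above. That copy differs from the word by T8G, counted from 1 at the 5′ end of the word. The GC content of the 101-base windows had a median of 51.0% over the 10 summits and 44.6% over all 1189.

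Other genes of mitochondrial and energy metabolism were read in the same way, and 4.77% of all coding genes is again the share to set beside each list. Import of nuclear-encoded proteins into mitochondria had 5 of 17 genes with a reproducible peak (29.4%, exact interval 10.3 to 56.0). The strongest were mppb-1 (rank 65), for a subunit of the processing peptidase, and ddp-1 (rank 257) and tomm-20 (rank 412) of the import machinery. tomm-7 shared a single peak at rank 557 with coq-5, the only peak among 8 ubiquinone synthesis genes. The citric acid cycle, which feeds the chain with electrons, had 2 of 16 genes, dld-1 (rank 193) and aco-2 (rank 880). Of 5 genes listed for pyruvate dehydrogenase (pdha-1, pdhb-1, dlat-1, pdhk-2 and pdp-1), pdhk-2 (rank 334) was the only one with a peak. Of 12 mitochondrial stress and protease genes, hsp-60 (rank 56) had one, 624 bp upstream of its TSS. The peaks of ddp-1, aco-2 and hsp-60 each lay in the window of another coding gene as well.

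Outside these, glycolysis had 1 of 19 genes (pgk-1, rank 1010) and the vacuolar proton pump 1 of 20 (vha-8, rank 645). The strongest window peak of pgk-1 ranked 4341 in replicate 1 and 1554 in replicate 2. The vha-8 peak also lay in the window of another coding gene, as did that of mrps-35 below. No peak was found among 6 carrier genes or 5 genes of mitochondrial DNA maintenance, and the exact upper limits of 45.9% and 52.2% are wide. The mitochondrial ribosome had 5 of 70 genes (7.14%, exact interval 2.36 to 15.9), led by mrps-35 (rank 45). The cytosolic ribosome had 36 of 78 (46.2%, exact interval 34.8 to 57.8), led by rpl-35 (rank 18). The respiratory share of 20.8% thus lay between those of the ribosomes, with an interval that overlaps that of the mitochondrial ribosome and meets that of the cytosolic one only at its upper end. No test was made between the lists.

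**Figure D4:**
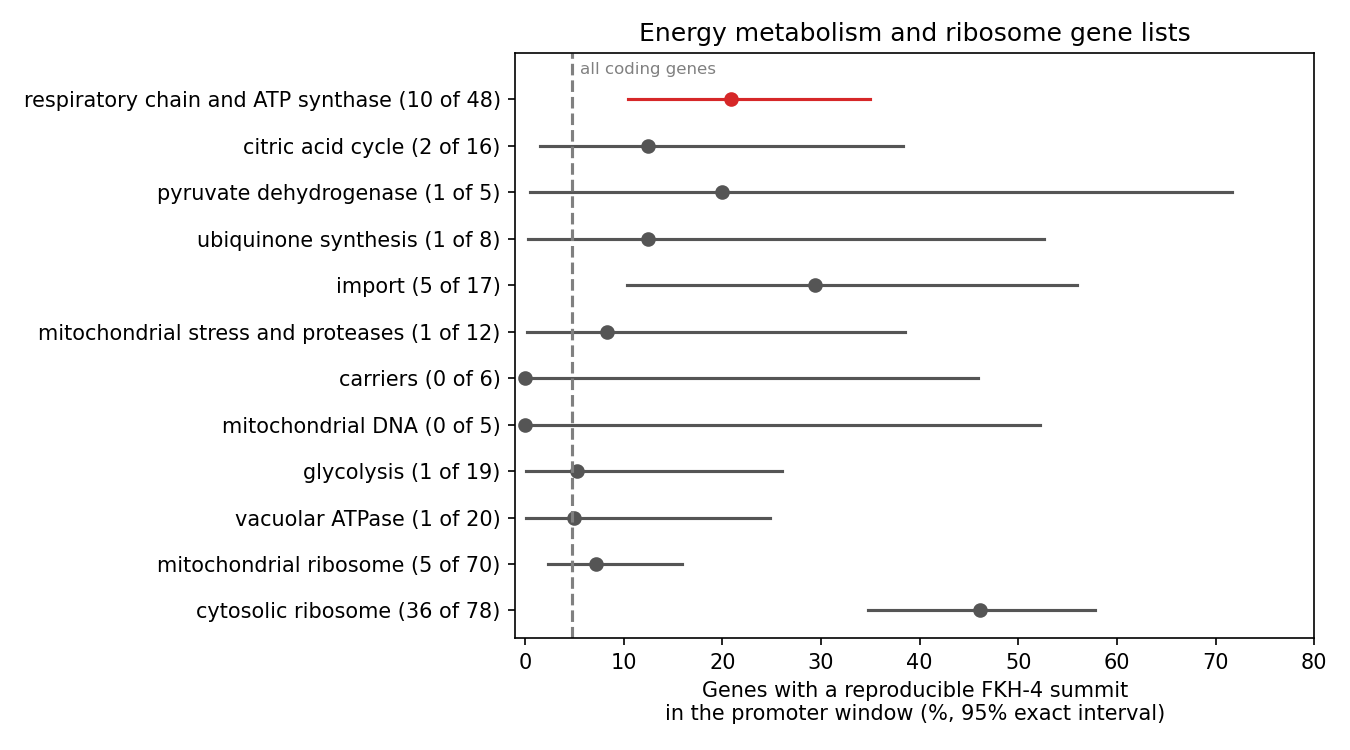
Percent of the genes in each list with a reproducible summit in a promoter window (points) with 95% exact intervals (lines), for the respiratory chain and ATP synthase genes in red and other lists in grey; the dashed line is the 4.77% of all coding genes. The point for the respiratory genes is at 20.8%, and that for cytosolic ribosomal protein genes at 46.2%.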

How the data were processed

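Peaks were deposited by the authors on ce11, the UCSC name of WBcel235, and the ce10 versions were not used. The deposited listings state that each list was made against a control, which is not analysed here, and that IDR was run on the pooled list and on those of the replicates. The aligner, caller, their versions and the IDR cutoff were likewise not given in the sources used here. The signal value that the authors deposited per peak has no stated scale. The deposited −log10 q values, 2.20 to 3.30 in the reproducible set, were used for no call.

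Summits were assigned to windows with Python 3.11.15, pandas 2.3.3, numpy 2.4.6 and scipy 1.17.1 (Ensembl release 115, coding transcripts), after a check on simulated summits. Ranks are by signal value. Intervals are Clopper-Pearson at 95%. The 38 remaining genes were not dropped from any count. Members, lists and motifs were chosen with earlier results of these data known. Genes named are those with a reproducible peak or one among the 1189 strongest of a replicate, the 3 next strongest, genes sharing a peak, and up to 4 per other list. Others, such as sdha-1, were picked once values were known. The window, TSS choice, peak number, assignment and motif window were varied, and each replicate was left out by using the strongest peaks of the other.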

Additional observations from a re-analysis of the deposited data

How the results depend on the processing

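Of 88 alternative values computed, 71 stayed within the set tolerance of the main value (counts within 1.5 times) and 17 moved. For the median summit distance the tolerance was 284 bp, the standard deviation of the member distances. That is wide, as a shift from -283 to -544.5 bp with the window from 2000 bp upstream to 500 bp downstream counted as staying. Motifs that matched no member summit at either width also counted as staying. With the stronger 594 peaks only, 5 of the 48 genes had a summit against 2.72% of coding genes; cox-6A, mev-1 and the 3 complex I genes were lost, as fewer peaks were read. Counting each peak only for the coding gene with the nearest TSS left 5 genes, against 3.38% of coding genes, which follows from the 5 peaks nearer to another coding start. Whole relaxed lists gave 22 genes with matched summits in both replicates in place of 9. Motif windows of 100 bp on either side gave 5 summits with at least 1 motif in place of 1. These had GAGAGA at cox-5A and isp-1, beside 32.0% of all summits, and TGTTTA at nduf-6 and nduf-11, beside 12.9%. TGATAA was at atp-5, beside 9.25%. The share with at least 1 motif was not computed over all summits. Other settings gave 7 genes with a window from 500 bp upstream to 100 bp downstream (cox-6A, isp-1 and nduf-2.2 lost; 3.77% of coding genes), 13 with one from 2000 bp upstream to 500 bp downstream (cox-10, cyc-2.1 and ucr-11 gained; 6.33%), 10 with the first TSS of each gene (4.49%), and 9 of 39 with structural subunits only. Leaving out a replicate gave 9 genes (only replicate 1 used) to 12 (only replicate 2 used), beside 4.52% and 4.88% of coding genes. No paired analysis was possible because the samples form 1 group. With 2 libraries of unknown depth and a control that is not analysed here, a missing peak cannot be read as absence of binding.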

Other observations

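Some respiratory genes lie downstream of another gene on the same strand, in an arrangement that in C. elegans is often an operon, where 1 promoter serves several genes. A gap of at most 200 bp, set after the values were seen, put 11 of the 48 genes behind such a neighbour. None of the 11 had a reproducible summit in its own window, as against 2.63% of the 1898 coding genes so placed. The first gene of the run had one for 4 of the 11 (36.4%), and for 13.7% of the 1898. The cytochrome c gene cyc-2.1 lies behind the ribosomal protein gene rpl-20, whose peak ranked 55 with a pooled signal of 236. The assembly gene cox-18 lies behind Y55F3AR.2 (rank 118, signal 174). ucr-11, of complex III, lies behind dad-1 (rank 794, signal 67.9), and nuo-4, of complex I, behind syf-2 (rank 1018, signal 56.7). The summits were 1052 bp upstream of cyc-2.1, 1298 bp upstream of ucr-11, 3137 bp upstream of cox-18 and 3657 bp upstream of nuo-4. Counting these, 14 of the 48 genes (29.2%) had a peak, against 5.95% of all coding genes read in the same way. Whether each run is transcribed as 1 unit was not tested.

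A further 35 genes of the same complexes carry names outside the rule by which the 48 were chosen, and were listed after the values were seen. Of these, 5 (14.3%) had a reproducible peak, against 4.77% of all coding genes, which made 15 over both lists. coa-3, named as an oxidase assembly factor, had the strongest (rank 263, signal 124), and ranked 1019 in replicate 1 and 138 in replicate 2. The other 4 were complex I genes by name, namely ndua-8 (rank 606), ndub-8 (rank 696), ndua-2 (rank 950) and nduv-3 (rank 1060). Each of the 5 peaks also lay in the window of at least 1 other coding gene. ndua-5 ranked 138 in replicate 1 and 5978 in replicate 2, with summits at different places, and had no reproducible peak.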
